A study of Rattus norvegicus with 9 samples.

Results

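The foreign body reaction (FBR) was compared with the circulation at the level of the monocyte and macrophage. CD68+ cells recovered from tissue around an implant in rats were set against CD68+ cells taken directly from rat blood, which asks how the transcriptome of these cells differs between the site of an early foreign body reaction and the blood. Each group was measured on 3 arrays, so that 6 of the 9 arrays of the series entered the comparison, chosen by the group their labels give. The other 3 arrays held blood CD68+ cells cultured on fibrinogen-coated PTFE, called in vitro activated cells, and served to estimate the spread. All animals were male Wistar rats with no genetic modification or drug treatment stated, and their age was not given in the sources used here. For the FBR group, patches of acellular, photo-oxidized bovine pericardium had been placed inside stainless steel cages in the peritoneal cavity, and the tissue that had formed was retrieved after 3 days, digested with collagenase A and plasmin, and freed of red cells. Blood cells had been obtained by density gradient centrifugation and red cell lysis, without culture. Both groups were then selected with the same biotinylated CD68 antibody on magnetic columns. The site of origin and the way the cells were freed therefore cannot be told apart, since only the FBR cells had passed through enzymatic digestion. The labels call the 3 arrays of each group biological replicates. The number of rats behind an array was not given, so that n counts arrays. The p-values set the difference between groups against the spread among arrays of a group, estimated over all 9 arrays.

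Monocytes leave the blood, enter wounded tissue and mature there into macrophages, which clear debris, release cytokines and growth factors, and recruit further cells. Around an implant, plasma proteins such as fibrinogen coat the surface within a short time and offer adhesion sites to these cells. In the early phase the cells are known to release inflammatory mediators, and later they may fuse into giant cells while fibroblasts lay down a capsule. CD68 is a heavily glycosylated protein of lysosomal membranes and is used as a general marker of the lineage. Since it was the antigen used for the selection, its level is a check of the cells and not a result.

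Values are MAS5 signals, a measure of the brightness of a probe set on a linear scale, always given in the order of replicates 1, 2 and 3. A change is the log2 fold change of the signal plus 16 in FBR over blood cells, with its standard error, and it understates the change of weak genes. P-values came from limma with Benjamini-Hochberg adjustment across all 31099 probe sets, and a change was called at an adjusted p under 0.05. Genes are said to rise or fall only where the change was called. Median signals were 97.3 to 102.8 on the blood arrays and 69.5 to 77.3 on the FBR arrays, and the brightest signals of an FBR array were 37815.6 to 46222. Arrays of a group correlated at 0.946 to 0.968 in blood and 0.968 to 0.976 in FBR cells, against 0.793 to 0.862 between the groups. Among 7651 genes with a mean signal of at least 200 in either group, the median SD of the log2 values was 0.2 among FBR arrays and 0.32 among blood arrays.

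Macrophage markers were high in FBR cells, while most markers of B, T and NK lymphocytes were lower there than in blood. Over all 14218 genes, the background for these lists, 14.6% were called higher and 19.2% lower. Of 13 measured macrophage markers 12 rose and none fell, at a median log2 fold change of 3.34 where that of all 14218 genes was -0.09. The list includes Cd68, the antigen of the selection. With quantile normalization 9 of these markers rose. Their summed signal was 14109 to 43143 on the blood arrays and 136304 to 146608 on the FBR arrays. Cd68 itself had signals of 11741, 3524 and 8450 in blood and 20075, 24802 and 20470 in FBR cells (1.62 ± 0.41, adjusted p = 0.012), a call that was lost with quantile normalization (adjusted p = 0.076). Cd163, the scavenger receptor for hemoglobin bound to haptoglobin, had 1.16, 48.3 and 125 in blood and 6557, 12892 and 10837 in FBR cells (7.50 ± 0.65, adjusted p = 2.9e-05). Mrc1, the mannose receptor, went from 301, 323 and 293 to 7453, 11580 and 10347 (4.91 ± 0.45, adjusted p = 4.0e-05). Mertk, a receptor tyrosine kinase for the uptake of apoptotic cells, went from 25.3, 5.63 and 51.9 to 924, 2552 and 2543 (5.55 ± 0.50, adjusted p = 3.5e-05). The groups did not overlap for any of these genes. Adgre1, which encodes the F4/80 antigen, lay higher on every FBR array but did not pass the test (1.32, adjusted p = 0.16).

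Of 12 B cell markers 11 fell and the remaining member, Cd37, did not pass, at a median of -5.64. Their summed signal was 60494 to 80120 in blood and 1761 to 6462 in FBR cells. Ms4a1, which encodes CD20, had 12497, 15691 and 16481 in blood and 32.7, 8.45 and 17.7 in FBR cells (-8.76 ± 0.52, adjusted p = 3.8e-06). Among the T cell markers 12 of 17 fell and none rose (median -2.17), and their sum was 8414 to 14309 in blood and 1803 to 2874 in FBR cells. Of the NK cell markers 11 of 13 fell and none rose (median -2.82), with a summed signal of 3355 to 10552 in blood and 392 to 538 in FBR cells. Klrd1, an NK cell lectin receptor, had 812, 3397 and 1441 in blood and 18.2, 2.03 and 7.9 in FBR cells (-6.03 ± 0.48, adjusted p = 1.7e-05). Blood replicate 2 was highest for Klrd1 and also for Bcl11b (867, 5124 and 1166), a T cell factor, and for Cd3e (123, 624 and 180). The blood cells, labelled as CD68+, thus carried clear B, T and NK cell transcripts. What part this had in the genes that fell, or in those that rose, was not tested. In bulk RNA, fewer cells of a type and less RNA per cell cannot be told apart.

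Markers of other cells were mixed. Of 9 platelet markers 6 fell and 1 rose, Pf4, a chemokine that monocytes also express (3947, 3914 and 6469 in blood and 21089, 17683 and 13988 in FBR cells). Neutrophil and granule markers were called higher in 2 of 13, a share near the 14.6% of all genes, and lower in 1. S100a8 (301, 7.29 and 324 in blood, 215, 290 and 543 in FBR cells) and S100a9 (237, 53.7 and 638 in blood, 633, 1091 and 1094 in FBR cells) overlapped between the groups and were not called, although S100a9 was with centring (adjusted p = 0.026) and with quantile normalization (adjusted p = 0.034). Fcnb, a ficolin of myeloid granules, fell from 15530, 2794 and 14188 to 928, 178 and 234 (-4.58 ± 1.21, adjusted p = 0.015). The red cell gene Hbb spread from 271 to 9345 among blood arrays and was 77.6 to 124 on FBR arrays. Fibroblast and myofibroblast markers rose in 9 of 25 and fell in 1, Thy1. Their summed signal was low in both groups, 1241 to 1869 in blood and 2477 to 5067 in FBR cells, with FBR replicate 1 highest. Col1a2, a chain of type I collagen, had 373, 82.3 and 63.3 on the FBR arrays. Of 13 mesothelial markers 3 rose, and Msln, which defines that cell, was at 180, 115 and 93.4 in FBR cells against 37.2, 64.6 and 46.3 in blood. Among 15 endothelial markers 3 rose and 4 fell (4 and 2 with centring), the latter including Vwf, as well as Pecam1 and Plvap, whose calls were lost with centring (adjusted p = 0.067 and 0.066). Of 14 markers of blood monocytes 4 rose and 4 fell (median 0.01), and Ly6c, a surface protein of inflammatory monocytes in mice, fell from 12755, 4686 and 8700 to 718, 359 and 354.

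**Figure D1:**
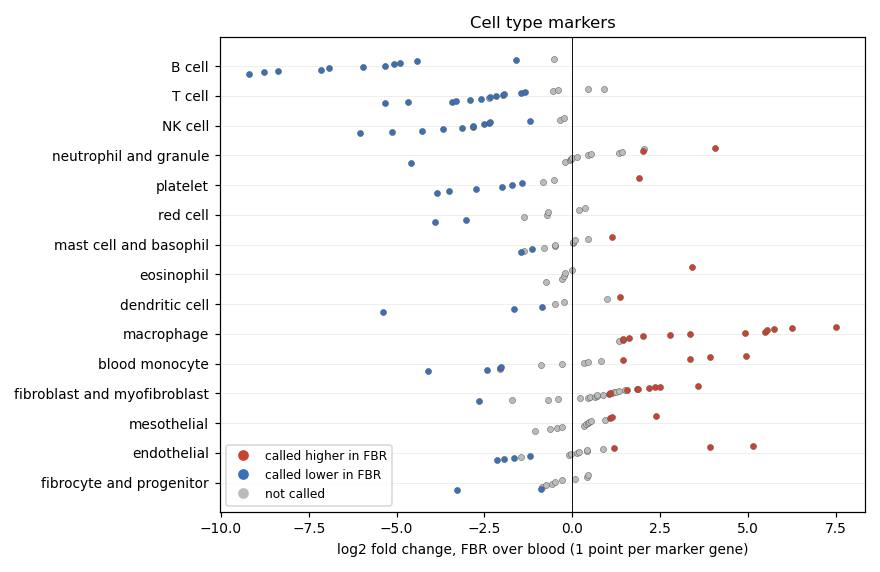
Log2 fold change of FBR over blood CD68+ cells (x axis) for the measured markers of 15 cell types (rows), each point a gene, coloured by its call at an adjusted p under 0.05. All 13 macrophage markers lie to the right of 0, and all B and NK cell markers lie to the left of it.

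Across the whole array more probe sets fell than rose. Of 31099 probe sets, FBR cells had the higher level in 3394 (10.9%) and the lower in 6227 (20.0%). Read per gene, 2078 of 14218 rose (14.6%) and 2729 fell (19.2%), and these shares are the background for each list below. On 13318 genes measured on all 6 arrays, every FBR array lay above every blood array in 22.4% and below every blood array in 29.2%. The excess of lower calls depended on the scaling. Over all probe sets the median change was -0.17 on the deposited scale, 0.0 with quantile normalization and 0.19 when the median of every array was set equal (centring). Of the called probe sets 35.3% were higher as deposited, 47.6% after quantile normalization and 56.9% after centring. None of the probe sets called as deposited turned to the other direction in either case, and all 3394 called higher remained so with centring, while 4047 of the 6227 lower calls did. Signals above 100 were found for 49.9 ± 0.46% of probe sets in blood and 44.9 ± 0.8% on the FBR arrays (mean ± SD over n = 3 arrays per group). This difference, -5.0 percentage points, reached p = 0.1 in an exact permutation test (two-sided), which cannot go lower with 3 arrays against 3. It was -0.1 with centring.

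**Figure D2:**
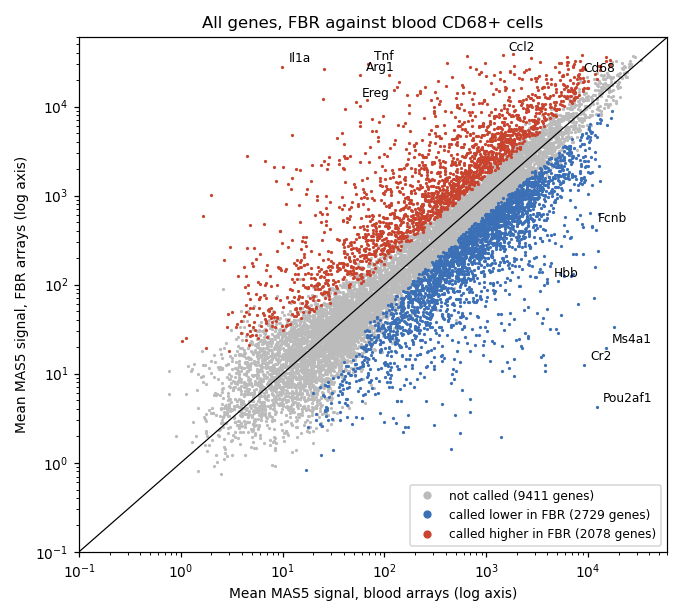
Mean MAS5 signal of each of 14218 genes on the 3 blood arrays (x axis) and the 3 FBR arrays (y axis), both on log axes, with the line of equality and the call of each gene in colour. The 2078 genes called higher lie above the line and include Il1a and Tnf, and the 2729 called lower lie below it with Pou2af1 and Ms4a1 at the far end.

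Large changes were common in both directions. Among the genes, 728 rose by more than 2 log2 units and 695 fell by as much, 158 rose and 105 fell by more than 4, and 36 rose and 20 fell by more than 6. The largest increase was in Il1a, which encodes interleukin-1 alpha, a cytokine that is active in its precursor form and released by injured cells. Its signals were 16.1, 5.04 and 8.72 in blood and 26134, 32581 and 25044 in FBR cells (10.08 ± 0.46, adjusted p = 1.5e-06). On the scale of the signal plus 16 this is a factor of 1085, which became a log2 fold change of 11.43 with a pseudocount of 1 and 8.56 with 64. Arg1, arginase, which turns arginine into ornithine and urea, had 86, 5.13 and 80.2 in blood and 22022, 24928 and 20182 in FBR cells (8.56 ± 0.67, adjusted p = 1.5e-05). Serpinb2, an inhibitor of plasminogen activators, had 2.61, 21.8 and 176 against 6649, 15525 and 13160 (7.76 ± 1.14, adjusted p = 5.9e-04). Rtp3, a member of a family of receptor transporters, had 49.6, 13.6 and 11 against 6852, 16752 and 13185 (8.26 ± 0.55, adjusted p = 7.2e-06). These genes were taken from those without overlap of the groups, and in each the lowest FBR array lay far above the highest blood array.

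Many of the largest decreases were in genes of B cells. Pou2af1, a coactivator of octamer-binding factors in B cells, had 8590, 16668 and 11456 in blood and 3.66, 1.09 and 7.96 in FBR cells (-9.20 ± 0.49, adjusted p = 2.5e-06). Ighvl1, named on the array as an immunoglobulin heavy chain gene, had 14123, 20280 and 20058 against 30.7, 29.2 and 40.4 (-8.51). Cr2, the complement receptor of B cells and follicular dendritic cells, had 6894, 11392 and 9026 against 26, 4.14 and 7.25 (-8.37), and the B cell receptor subunit Cd79b had 3217, 2672 and 5527 against 23, 4.14 and 5.23 (-7.15). Others among the lowest 15 are not markers of the B cell list used here. Mnda, a nuclear antigen of myeloid cells, had 10335, 9996 and 14369 in blood and 100, 56.3 and 57.8 in FBR cells (-7.07 ± 0.40, adjusted p = 2.8e-06). Hpgds, the hematopoietic synthase of prostaglandin D, had 6293, 7977 and 9444 against 27.1, 78.1 and 78.7 (-6.75 ± 0.38, adjusted p = 2.8e-06). Rnase6, an antimicrobial ribonuclease, had 3939, 4450 and 3049 against 29.1, 4.28 and 4.21 (-7.16).

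**Figure D3:**
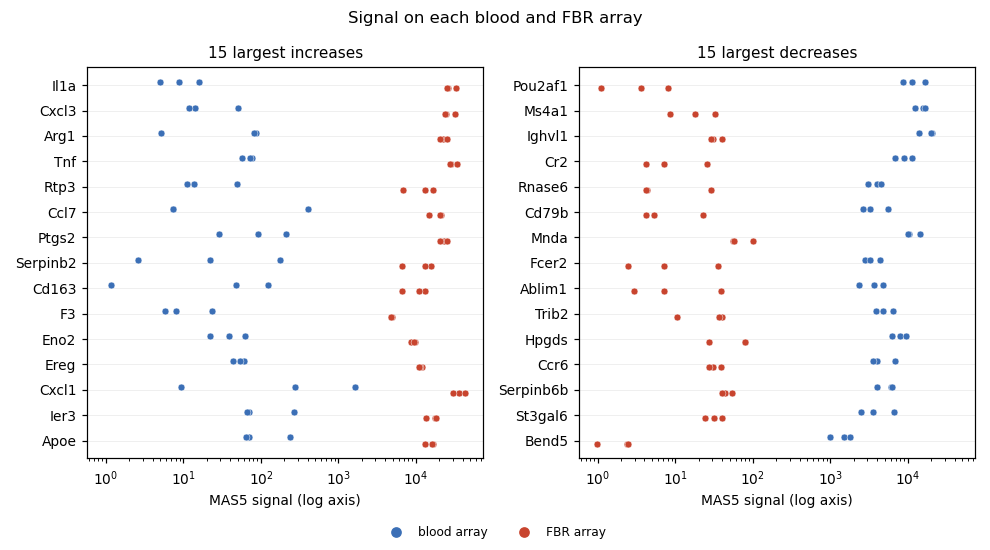
MAS5 signal (x axis, log) on each of the 3 blood and 3 FBR arrays for the 15 genes with the largest increase (left) and the 15 with the largest decrease (right) among called genes with no overlap of the groups. The groups stand apart in every row by this choice of genes. In Cxcl1 the highest blood array reaches 1641 and the lowest FBR array 30429.

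Inflammatory cytokines rose together. Of 32 measured interleukins, TNF family members and colony-stimulating factors 18 rose and 2 fell, at a median of 2.43. Tnf, the prototype of its family, had 77.7, 71.5 and 56.9 in blood and 28266, 34169 and 27149 in FBR cells (8.46 ± 0.33, adjusted p = 8.4e-07). Il6, a cytokine of fever and the acute phase, had 201, 195 and 350 against 15054, 19676 and 14499 (5.99 ± 0.58, adjusted p = 5.4e-05). Il1b was already clear in blood, with 3046, 1419 and 3868, and reached 34291, 40505 and 30436 in FBR cells (3.76 ± 0.61, adjusted p = 0.0011). Its antagonist Il1rn, which blocks the receptor, had 197, 8.61 and 238 against 867, 1484 and 1331 (3.46 ± 0.73, adjusted p = 0.0046). The FBR arrays exceeded every blood array for each of these genes.

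Growth factors for granulocytes and macrophages rose from signals close to the floor. Csf2 had 10.2, 10.6 and 13.2 in blood and 1026, 1586 and 1459 in FBR cells (5.63 ± 0.28, adjusted p = 1.8e-06), and Csf3 had 23.7, 54.8 and 43 against 1322, 3716 and 3363 (5.54 ± 0.43, adjusted p = 1.4e-05). The anti-inflammatory Il10 had 33.6, 13.7 and 9.17 against 943, 1793 and 1685 (5.43 ± 0.40, adjusted p = 1.1e-05). FBR replicate 1 was the lowest of its group in all 3 of these genes, and no array of the groups overlapped. Ebi3, a subunit shared by interleukins of the IL-12 family, had 1559, 634 and 791 against 17638, 25634 and 23137. Il12a and Il12b (0.40 and 0.13), Ifng (-0.11) and Csf1 (-0.10) were not called. The 2 that fell were Ltb, lymphotoxin beta (4186, 6282 and 7177 in blood, 386, 354 and 308 in FBR cells, -3.98 ± 0.39), and Il16, a chemoattractant of CD4+ cells (3602, 4986 and 4151 against 211, 140 and 130, -4.61 ± 0.32). Both are known as products of lymphocytes.

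Cytokine receptors rose in 13 of 28 and fell in 4, with a median of 0.85. The receptors for interleukin-1 moved furthest. Il1r1, the signaling receptor, had 49.1, 28 and 62.1 in blood and 1450, 3095 and 3745 in FBR cells (5.41 ± 0.37, adjusted p = 7.6e-06), and Il1r2, the decoy that binds without signaling, had 10.6, 2.15 and 17.8 against 1492, 2372 and 2343 (6.33 ± 0.31, adjusted p = 1.8e-06). Both chains of the interferon gamma receptor rose, Ifngr1 by 1.92 and Ifngr2 by 2.34. Csf1r, the receptor through which macrophages receive their survival signal, had 7281, 1956 and 5166 in blood and 12032, 10289 and 11703 in FBR cells (1.43 ± 0.42, adjusted p = 0.025), a call lost with quantile normalization (adjusted p = 0.14). Il27ra (265, 698 and 398 in blood, 0.926, 1.61 and 1.7 in FBR cells) and Il2rb, Il17ra and Il2rg fell, the latter pair with their calls lost under centring (adjusted p = 0.069 for Il17ra and 0.26 for Il2rg).

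Chemokines, the attractants of leukocytes, were among the brightest genes of the FBR arrays. Of 28 measured, 16 rose and 1 fell, at a median of 1.63. The neutrophil attractant Cxcl3 had 14.2, 11.8 and 50.4 in blood and 24519, 31561 and 23724 in FBR cells (9.43 ± 0.57, adjusted p = 4.5e-06). Of its 5 probe sets 3 were called higher (7.44 to 9.43) and the other pair, with signals under 50 throughout, was not. Cxcl2 had 436, 483 and 4560 against 36805, 46106 and 34910 (5.27 ± 0.93, adjusted p = 0.0024). Cxcl1 had 9.19, 274 and 1641 against 36046, 43213 and 30429 (7.30 ± 1.17, adjusted p = 9.8e-04). The monocyte attractant Ccl2 had 269, 94.1 and 3986 against 39469, 42328 and 30810 (6.22 ± 1.07, adjusted p = 0.0015), and Ccl7 had 7.24, 7.31 and 402 against 20969, 20507 and 14765 (8.25 ± 1.11, adjusted p = 3.6e-04). Blood replicate 3 was the highest blood array in each of these 5 genes, and it still lay below every FBR array.

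Ccl3 and Ccl4, attractants of monocytes and T cells, started from different levels. Ccl3 was bright in blood (8660, 6598 and 11076) and reached 37525, 45283 and 30077 in FBR cells (2.11 ± 0.29, adjusted p = 4.5e-04), whereas Ccl4 went from 402, 352 and 620 to 21873, 23062 and 19530 (5.54 ± 0.37, adjusted p = 7.3e-06). Ccl24, an eosinophil attractant associated with alternative activation, had 26.1, 42.8 and 884 against 7088, 5422 and 5697 (5.53 ± 0.95, adjusted p = 0.0015). Cxcl10, an interferon-inducible attractant of T cells, rose from 277, 111 and 206 to 3636, 3242 and 2896 (4.01 ± 0.36, adjusted p = 3.6e-05), while its relatives Cxcl9 (-1.10, adjusted p = 0.1) and Cxcl11 (0.58) were not called, the latter gaining a call with centring (adjusted p = 0.04) and quantile normalization (adjusted p = 0.039). Ccl5, which T and NK cells express strongly, fell from 258, 1700 and 427 to 16.6, 56.1 and 7.96 (-3.95 ± 0.65, adjusted p = 0.0015). Blood replicate 2, the highest for Ccl5, was also the highest for Klrd1, Bcl11b and Cd3e.

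Receptors for chemoattractants moved both ways, with 7 of 20 called higher and 4 lower (median 0.10). Ltb4r, the leukotriene B4 receptor, had 32.4, 34 and 124 in blood and 561, 1259 and 1104 in FBR cells (3.75 ± 0.45, adjusted p = 1.8e-04), and Ccr1, a receptor of Ccl3, had 1186, 685 and 1169 against 2964, 4831 and 4384 (2.00 ± 0.30, adjusted p = 6.7e-04). Receptors known from circulating monocytes had lower signals without a call that held throughout. Cx3cr1, the fractalkine receptor, had 478, 174 and 313 in blood and 128, 8.19 and 115 in FBR cells (-2.03 ± 0.62, adjusted p = 0.031), but its call was lost with centring (adjusted p = 0.057) and with quantile normalization (adjusted p = 0.079). Ccr2, the receptor of Ccl2, had 960, 445 and 653 against 140, 127 and 174 and did not pass (-2.05, adjusted p = 0.089), although the groups did not overlap and a fit of the 6 arrays alone called it (adjusted p = 0.002). The largest decreases, Ccr6 (-6.61 ± 0.48) and Cxcr5 (-3.38), were in receptors of lymphocytes.

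Transcripts of prostaglandin synthesis were higher at several steps. Of 24 genes of the prostaglandin and leukotriene pathway 11 rose and 1 fell (median 1.26). Ptgs2, the inducible cyclooxygenase, had 90.7, 29.1 and 209 in blood and 22855, 25035 and 20168 in FBR cells (7.78 ± 0.49, adjusted p = 5.1e-06). Ptges, the synthase that makes prostaglandin E2 after it, had 27.6, 4.28 and 11.9 against 250, 1103 and 982 (4.52 ± 0.56, adjusted p = 2.3e-04), and Ptger2, a receptor of that product, had 9.38, 5.55 and 37.4 against 936, 1223 and 1380 (5.26 ± 0.35, adjusted p = 7.3e-06). FBR replicate 1 was the lowest FBR array for Ptges and Ptger2. Hpgds, given above, was the gene that fell. The degrading enzyme Hpgd stayed under 30 on all 6 arrays and was not called (0.13).

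Inhibitors of the same signals were high as well. In the list of negative feedback regulators 15 of 26 rose and 2 fell, with a median of 1.6. Nfkbia, the inhibitor that holds NF-kappaB in the cytoplasm and is itself one of its targets, had 3083, 917 and 3130 in blood and 24538, 27612 and 20913 in FBR cells (3.54 ± 0.47, adjusted p = 7.6e-04). Tnfaip3, the ubiquitin-editing enzyme A20, had 5780, 4390 and 5321 against 29915, 36153 and 26420 (2.57 ± 0.30, adjusted p = 2.3e-04), and Zc3h12a, a ribonuclease that degrades cytokine mRNAs, had 273, 157 and 227 against 3114, 2870 and 2805 (3.68 ± 0.25, adjusted p = 7.2e-06). Dusp2, a phosphatase of MAP kinases, rose by 5.83 ± 0.31 from 205, 400 and 398 to 15819, 23245 and 18915. Against the list, its relative Dusp6 fell from 12001, 5186 and 9454 to 2575, 2443 and 3122 (-1.63 ± 0.32, adjusted p = 0.003), and Pias1 fell by 1.78 on the log2 scale. Socs3 rose (2.23) while Socs1 was not called (-0.54).

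Immediate early genes, transcription factors among them, respond within minutes to many stimuli and to handling. In this list 18 of 31 rose with none lower (median 2.15). Ier3, a regulator of survival under stress, had 70.5, 65.3 and 267 in blood and 17694, 18243 and 13591 in FBR cells (7.03 ± 0.60, adjusted p = 2.4e-05). Nr4a3, an orphan nuclear receptor, had 56.9, 11.7 and 55.6 against 3088, 2128 and 2613 (5.63 ± 0.52, adjusted p = 4.3e-05), and Atf3 had 1230, 496 and 1159 against 11407, 12979 and 11505 (3.72 ± 0.33, adjusted p = 3.5e-05). Fosb had 1398, 2833 and 887 against 11093, 10916 and 12584 (2.91 ± 0.41, adjusted p = 4.7e-04). Fos, the best known of the class, was bright in both groups with 15076, 13458 and 15979 in blood and 19221, 22863 and 18376 in FBR cells and was not called (0.44, adjusted p = 0.35). Its signals did not overlap between the groups, and its change turned to -0.13 with quantile normalization. What part digestion of the tissue had in this list was not tested.

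Promoter sequence was examined for the letters of an NF-kappaB site, since many of the genes above are textbook targets of that factor. Promoters of 300 bases, 250 before and 50 after the transcription start, were available from RefSeq (build GRCr8) for 11734 of the 14218 genes. The kappaB letters GGNNTTTCC, searched on both strands, occurred in 6.1% of all 33469 promoters and in 6.0% of those of genes on the array. The share was 6.7% for genes called higher and 5.6% for those called lower. They occurred in 5 of 12 promoters of chemokines that rose and 3 of 10 of those not called. For negative feedback genes they were in 6 of 14 that rose, 1 of 2 that fell and 0 of 5 not called. The cytokine list had them in 3 of 11 that rose, 1 of 2 that fell and 2 of 8 not called. Cytokine receptors had them in 3 of 12 that rose, 0 of 2 that fell and 1 of 10 not called. Chemoattractant receptors had them in 1 of 6 that rose, 0 of 3 that fell and 1 of 7 not called. In the prostaglandin and leukotriene list they were in 0 of 11 that rose and 0 of 7 not called. Of the immediate early list, 0 of 14 that rose and 2 of 7 not called held them. The stretches below are shown because they hold the sites of genes whose signals are given in this report, with the matching letters in capitals, 5′ to 3′ on the strand of the gene. A match is a description of the letters and not of binding.
Cxcl1, chr14:17479372-17479441, minus strand: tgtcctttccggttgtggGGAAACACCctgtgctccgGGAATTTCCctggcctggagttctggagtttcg
Cxcl2, chr14:17467276-17467345, minus strand: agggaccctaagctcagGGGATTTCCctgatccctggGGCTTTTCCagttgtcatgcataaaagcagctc
Nfkbia, chr6:78597073-78597132, minus strand: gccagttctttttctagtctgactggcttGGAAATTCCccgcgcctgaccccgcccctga
Tnfaip3, chr1:15544010-15544069, minus strand: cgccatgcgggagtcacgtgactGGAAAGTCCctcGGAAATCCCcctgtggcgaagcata
Icam1, chr8:27829675-27829734, plus strand: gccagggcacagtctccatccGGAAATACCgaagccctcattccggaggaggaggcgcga

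Sensors of microbial products showed a few increases among many genes that were not called. Of 19 Toll-like receptors and adaptors 5 rose and 3 fell (median -0.01), while with centring 7 rose and 0 fell and the median turned to 0.36. Tlr2, the receptor of bacterial lipopeptides, had 3083, 904 and 2598 in blood and 15805, 17721 and 14700 in FBR cells (3.04 ± 0.42, adjusted p = 4.0e-04). Tlr4, the receptor of endotoxin, had 459, 314 and 465 against 391, 304 and 210 and was not called (-0.45), while its coreceptor Cd14 rose from 4212, 1655 and 4348 to 33182 and 30270 on the 2 FBR arrays with a reading (3.34 ± 0.42, adjusted p = 3.9e-04). Irak4, a kinase below these receptors, fell from 114, 80.4 and 102 to 31.1, 17.3 and 49.1, with the call lost under centring (adjusted p = 0.14) and quantile normalization (adjusted p = 0.12).

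Interferon-stimulated genes ran the other way. In this list 14 of 30 fell and 2 rose, with a median of -1.12 against -0.09 over all genes, and 13 fell with quantile normalization and 12 with centring. Mx1, an antiviral GTPase, had 7077, 3364 and 3699 in blood and 457, 242 and 175 in FBR cells (-3.97 ± 0.43, adjusted p = 9.6e-05), and Mx2 had 1340, 603 and 645 against 94.7, 65.8 and 54 (-3.26 ± 0.37, adjusted p = 1.4e-04). Irf9 (-2.37), a subunit of the factor that drives these genes, and the interferon-inducible GTPase Igtp (-2.38) also fell. Irf7 had 5277, 1344 and 2271 against 1004, 881 and 936 (-1.41, adjusted p = 0.037), a call lost with centring (adjusted p = 0.12) and with quantile normalization (adjusted p = 0.058). The exceptions were Oasl, which rose from 2074, 613 and 1031 to 12724, 17735 and 16953 (3.81 ± 0.47, adjusted p = 2.1e-04), and Irf1 (0.91, adjusted p = 0.036, and 0.14 with quantile normalization). Isg15 (1335, 361 and 685 in blood, 811, 1379 and 1362 in FBR cells) overlapped between the groups, and Ifit1 stayed under 90 on all arrays. Ifnb1, interferon beta, was among the genes that rose (1.89).

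Heat shock proteins differed strongly from gene to gene. Of 29 chaperones and co-chaperones 12 rose and 1 fell, with a median of 0.63. Hspa1a, the inducible HSP70, had 232, 115 and 147 in blood and 21696, 9419 and 9179 in FBR cells (6.15 ± 0.38, adjusted p = 4.8e-06), although its probes may also read the nearly identical copy Hspa1b. Hspb1, the small heat shock protein HSP27, had 9.28, 27.5 and 7.89 against 4245, 979 and 623 (5.55 ± 0.65, adjusted p = 1.7e-04), and Bag3, a co-chaperone of HSP70, had 201, 178 and 216 against 2678, 1396 and 1449 (3.05 ± 0.29, adjusted p = 5.0e-05). FBR replicate 1 was the highest array for these 3 genes, and for Hsph1 (5532 against 1468 and 1507), whose change was not called (1.11) except with centring (adjusted p = 0.037). Zfand2a, an arsenite-inducible protein, was even across FBR arrays with 16974, 18998 and 14815 against 481, 283 and 445 in blood (5.36 ± 0.27). The constitutive Hsp90ab1 (0.43, called only with centring at an adjusted p of 0.048) and the inducible co-chaperone Dnajb1 (2987, 6596 and 2573 in blood, 6243, 3321 and 3340 in FBR cells) overlapped between the groups. Hspa4 fell (-1.65 ± 0.43), with the call lost after quantile normalization (adjusted p = 0.056).

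The letters GAANNTTC of the heat shock element occurred in 8.6% of all promoters and in 5.9% of those of genes on the array. They were found in 5.5% of the promoters of genes called higher and in 6.7% of those called lower. In this list they were found in 4 of 10 promoters of genes that rose and in 8 of 14 promoters of genes not called. The presence of the letters thus did not separate the members that rose. The stretches of Hspb1 and Bag3 are given with the match in capitals because both genes rose and were highest on FBR replicate 1.
Hspb1, chr12:26432382-26432451, minus strand: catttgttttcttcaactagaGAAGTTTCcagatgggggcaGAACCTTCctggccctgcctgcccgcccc
Bag3, chr1:192533300-192533359, plus strand: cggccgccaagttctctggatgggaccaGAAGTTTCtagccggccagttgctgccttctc

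Genes of endoplasmic reticulum (ER) stress and the amino acid response rose almost throughout, with 27 of 32 higher and 2 lower (median 1.68). Ero1a, an oxidase of protein folding, had 1103, 1411 and 1050 in blood and 25541, 23333 and 18952 in FBR cells (4.23 ± 0.29, adjusted p = 7.9e-06). Hspa5, the ER chaperone BiP, had 8340, 4264 and 6320 against 31538, 37073 and 26700 (2.37 ± 0.29, adjusted p = 2.2e-04), and Ddit3, the stress factor CHOP, had 1102, 407 and 796 against 2332, 5084 and 3964 (2.32 ± 0.41, adjusted p = 0.0017). The amino acid transporter Slc7a11, which takes up cystine, had 86.3 and 63.9 on the 2 blood arrays with a reading and 1429, 7451 and 6950 in FBR cells (5.54 ± 0.68, adjusted p = 3.1e-04). FBR replicate 1 was the lowest of its group for Ddit3 and Slc7a11. The 2 genes that fell, Phgdh (-1.41) and Psat1 (-1.02), encode enzymes of serine synthesis, and the call of Psat1 was lost with centring (adjusted p = 0.086) and with quantile normalization (adjusted p = 0.088).

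Antioxidant genes and metallothioneins rose in 20 of 32 with none lower (median 1.4). Mt2A, a metal-binding protein, had 201, 231 and 233 in blood and 16139, 15959 and 12955 in FBR cells (5.98 ± 0.57, adjusted p = 4.8e-05). Nqo1, a quinone reductase and target of NRF2, had 1744, 726 and 1022 against 10061, 15988 and 15665 (3.62 ± 0.34, adjusted p = 4.9e-05), and Txnrd1, thioredoxin reductase, had 729, 884 and 697 against 4273, 8437 and 10675 (3.22 ± 0.36, adjusted p = 1.3e-04). Sod2, the mitochondrial superoxide dismutase, had 3282, 1247 and 2803 against 18598, 32302 and 27216 (3.48 ± 0.40, adjusted p = 1.4e-04). None of these genes overlapped between the groups, and FBR replicate 1 was the lowest FBR array for Nqo1, Txnrd1 and Sod2. Catalase (Cat, 0.86) and glutathione peroxidase (Gpx1, 0.68) were not called, but both were with centring (adjusted p = 0.016 for Cat and 0.02 for Gpx1).

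Transcripts of glucose uptake and glycolysis rose at nearly every step. Of 32 genes 25 were higher and 3 lower, at a median of 1.84. Slc2a1, the glucose transporter GLUT1, had 316, 215 and 405 in blood and 15992, 14387 and 13722 in FBR cells (5.53 ± 0.28, adjusted p = 2.1e-06). Eno2, an enolase better known from neurons, had 22.3, 38.4 and 62 against 9845, 8656 and 9402 (7.41 ± 0.30, adjusted p = 1.0e-06), and Aldoc, an aldolase, had 8.85, 10.6 and 16.7 against 1326, 1106 and 1101 (5.42 ± 0.43, adjusted p = 1.7e-05). The common isoforms were bright in blood and rose by less. Ldha, lactate dehydrogenase A, went from 8532, 4903 and 8043 to 27817, 30151 and 24640 (1.98 ± 0.30, adjusted p = 7.1e-04), and Gapdh from 10161, 3932 and 10902 to 31884, 38136 and 28340 (2.10 ± 0.40, adjusted p = 0.0026). The lactate exporter Slc16a3 (4.35) and the activator of phosphofructokinase Pfkfb3 (4.11) also rose. The 3 that fell were the isoforms Ldhb (188, 227 and 190 in blood, 92.2, 25.9 and 34.5 in FBR cells), Pfkm and Pfkfb2. The call of Pfkm was lost with centring (adjusted p = 0.12) and with quantile normalization (adjusted p = 0.16). When all probe sets of a gene were averaged, neither Pfkfb2 (-0.55, adjusted p = 0.12) nor Pfkm (-0.52, adjusted p = 0.077) was called.

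The hypoxia response list had a median of 2.74, with 20 of 28 genes higher and 1 lower. Adm, adrenomedullin, a vasodilator peptide, had 8.98, 3.32 and 12.1 in blood and 3110, 1492 and 1693 in FBR cells (6.39 ± 0.54, adjusted p = 2.4e-05). Vegfa, the growth factor of blood vessels, had 29.8, 36.8 and 62 against 3786, 1715 and 2428 (5.46 ± 0.53, adjusted p = 5.7e-05), and Bnip3, a mitophagy receptor, had 137, 335 and 199 against 13453, 14811 and 13761 (5.95 ± 0.47, adjusted p = 1.5e-05). P4ha1, a collagen prolyl hydroxylase, had 437, 147 and 328 against 10989, 7459 and 6917 (4.82 ± 0.40, adjusted p = 2.2e-05). FBR replicate 1 was the highest array for Adm, Vegfa and P4ha1. Egln3, a hydroxylase that marks HIF for degradation, rose by 3.58 ± 0.52, and Hif1a mRNA, which codes for the oxygen-regulated subunit, had 3645, 5455 and 3928 against 17097, 18223 and 18049 (2.05 ± 0.26, adjusted p = 2.3e-04). Ddit4, another known target, fell from 1413, 1047 and 2141 to 620, 418 and 397 (-1.61 ± 0.35, adjusted p = 0.0054).

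The core ACGTG of the hypoxia response element was found in 19.3% of all promoters and in 24.0% of those of genes on the array. It occurred in 28.1% of promoters of genes called higher and 22.6% of those called lower. Among the hypoxia genes 12 of 19 promoters of those that rose held it, 1 of 1 of those that fell (Ddit4) and 2 of 6 of those not called. Among glycolysis genes it was found in 13 of 23 that rose, 1 of 3 that fell and 0 of 4 not called. These counts describe the letters of the promoters only. The stretches shown belong to a transporter, a mitochondrial protein and an enzyme from these lists, with the core in capitals, and in Bnip3 the capitals hold the core on both strands.
Slc2a1, chr5:138002442-138002501, plus strand: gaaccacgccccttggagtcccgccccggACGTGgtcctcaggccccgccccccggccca
Bnip3, chr1:203155023-203155082, minus strand: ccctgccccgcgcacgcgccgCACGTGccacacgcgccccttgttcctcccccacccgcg
Eno2, chr4:159267326-159267385, minus strand: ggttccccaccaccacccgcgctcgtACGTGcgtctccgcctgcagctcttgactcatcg

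Mitochondrial energy genes changed less. Of 77 subunits of the respiratory chain 10 rose and 2 fell (median 0.51), and with centring 28 rose and 0 fell. Atp5f1d, a subunit of ATP synthase, had 2170, 958 and 2156 in blood and 6311, 5924 and 4358 in FBR cells (1.72 ± 0.35, adjusted p = 0.0037), and Ndufs1 of complex I fell from 1237, 1281 and 1432 to 768, 785 and 646 (-0.83 ± 0.22, adjusted p = 0.015, and 0.15 with centring). In the citric acid cycle 3 of 22 rose (9 with centring), Idh1 (1.54), Aco1 (1.45) and Idh2 (1.04), of which Idh1 and Aco1 encode enzymes that also work in the cytosol.

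Genes of heme and iron handling rose in 16 of 25 and fell in 1, at a median of 1.45. Hmox1, heme oxygenase 1, which opens the heme ring, had 1004, 261 and 804 in blood and 25078, 33028 and 25142 in FBR cells (5.49 ± 0.45, adjusted p = 1.9e-05). The scavenger receptor Cd163 stands in the same list. The heme transporters Slc48a1 (4.09) and Flvcr2 (3.75) rose, as did ceruloplasmin, Cp, a ferroxidase of plasma, from 46, 37.1 and 88.8 to 4972, 7100 and 6074 (6.42 ± 0.52, adjusted p = 1.8e-05). The iron exporter Slc40a1 (332, 577 and 358 in blood, 443, 590 and 607 in FBR cells) and the transferrin receptor Tfrc (0.53) overlapped between the groups. Of the enzymes that reduce biliverdin, Blvrb rose (3.61) and Blvra fell (-1.02, with the call lost under centring, adjusted p = 0.14).

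In arginine metabolism 12 of 24 rose and 1 fell (median 0.85). Next to Arg1, the inducible nitric oxide synthase Nos2, which uses the same substrate, had 96.8, 95.9 and 80.6 in blood and 356, 254 and 495 in FBR cells (1.80 ± 0.52, adjusted p = 0.024). Ass1, which regenerates arginine from citrulline, had 239, 45.8 and 330 against 3547, 3964 and 4097 (4.46 ± 0.56, adjusted p = 2.3e-04), and Gch1, which makes the cofactor of the synthase, rose by 4.13. Arg2, the mitochondrial arginase (0.82), and Odc1, the enzyme from ornithine to polyamines (2117 and 2317 on the 2 blood arrays with a reading, 2819, 2237 and 2724 in FBR cells), were not called. Arg2 did pass with centring (adjusted p = 0.019) and with quantile normalization (adjusted p = 0.03). Spermine synthase, Sms, fell from 377, 818 and 512 to 188, 136 and 217 (-1.53 ± 0.32, adjusted p = 0.0044).

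Lipid uptake, storage and efflux genes rose in 20 of 31 with none lower (median 2.03). Apoe, the apolipoprotein that macrophages secrete, had 70.8, 64.8 and 235 in blood and 16370, 16152 and 13131 in FBR cells (6.97 ± 0.51, adjusted p = 1.1e-05). Olr1, a receptor of oxidized low density lipoprotein, had 191, 117 and 218 against 10005 and 10889 on the 2 FBR arrays with a reading (5.81 ± 0.45, adjusted p = 2.6e-05). Fabp4, a fatty acid carrier of adipocytes and macrophages, had 26.3, 8.37 and 49.7 against 1983, 1578 and 3228 (5.74 ± 0.51, adjusted p = 3.1e-05). Gpnmb, a glycoprotein of lipid-laden macrophages, had 1579, 321 and 2700 against 19643, 16927 and 12946 (3.84 ± 0.64, adjusted p = 0.0012), and Trem2 had 19.4, 6.8 and 139 against 1456, 521 and 431 (3.82 ± 0.69, adjusted p = 0.002). The cholesterol exporter Abca1 rose (3.91) while Abcg1 (-0.25), Pparg (324, 103 and 145 in blood, 157, 96.4 and 72.4 in FBR cells) and Nr1h3 (-0.12) were not called. Genes of cholesterol and fatty acid synthesis showed no direction that held across scalings. As deposited 7 of 28 were lower and 2 higher (median -0.46), where 19.2% of all genes were lower. After quantile normalization and after centring the counts were 5 higher and 4 lower, with medians of -0.22 and -0.1. Elovl6, a fatty acid elongase, fell from 128, 505 and 223 to 28.4, 8.98 and 18.2 (-2.96 ± 0.48, adjusted p = 0.0014). Those that rose, Insig1 (1993, 2049 and 2012 in blood, 7540, 7170 and 7611 in FBR cells) and Insig2 (1.21), hold the sterol sensor back in the ER.

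Genes used as markers of alternative activation rose in 15 of 22 with none lower (median 1.87), on the same arrays on which Tnf, Il1b and Il6 rose. Besides Arg1, Cd163 and Mrc1, Stab1, a scavenger receptor, had 38.1, 37.5 and 43.3 in blood and 5519, 3217 and 2659 in FBR cells (6.03 ± 0.33, adjusted p = 2.6e-06). Tgm2, transglutaminase 2, had 263, 57.5 and 312 against 15115, 14070 and 11065 (6.14 ± 0.48, adjusted p = 1.6e-05), and F13a1, the transglutaminase of clotting, had 379, 347 and 1065 against 17709, 16363 and 15793 (4.95 ± 0.68, adjusted p = 4.0e-04). Retnla, a marker in mouse macrophages, differed little (59.3, 59 and 58 against 105, 122 and 85, 0.67 ± 0.22, adjusted p = 0.042), and Ccl17 (0.03), Chia (0.06) and Alox15 (-0.21) were not called. Chi3l1 was bright in both groups and was not called (1.42, adjusted p = 0.13).

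**Figure D4:**
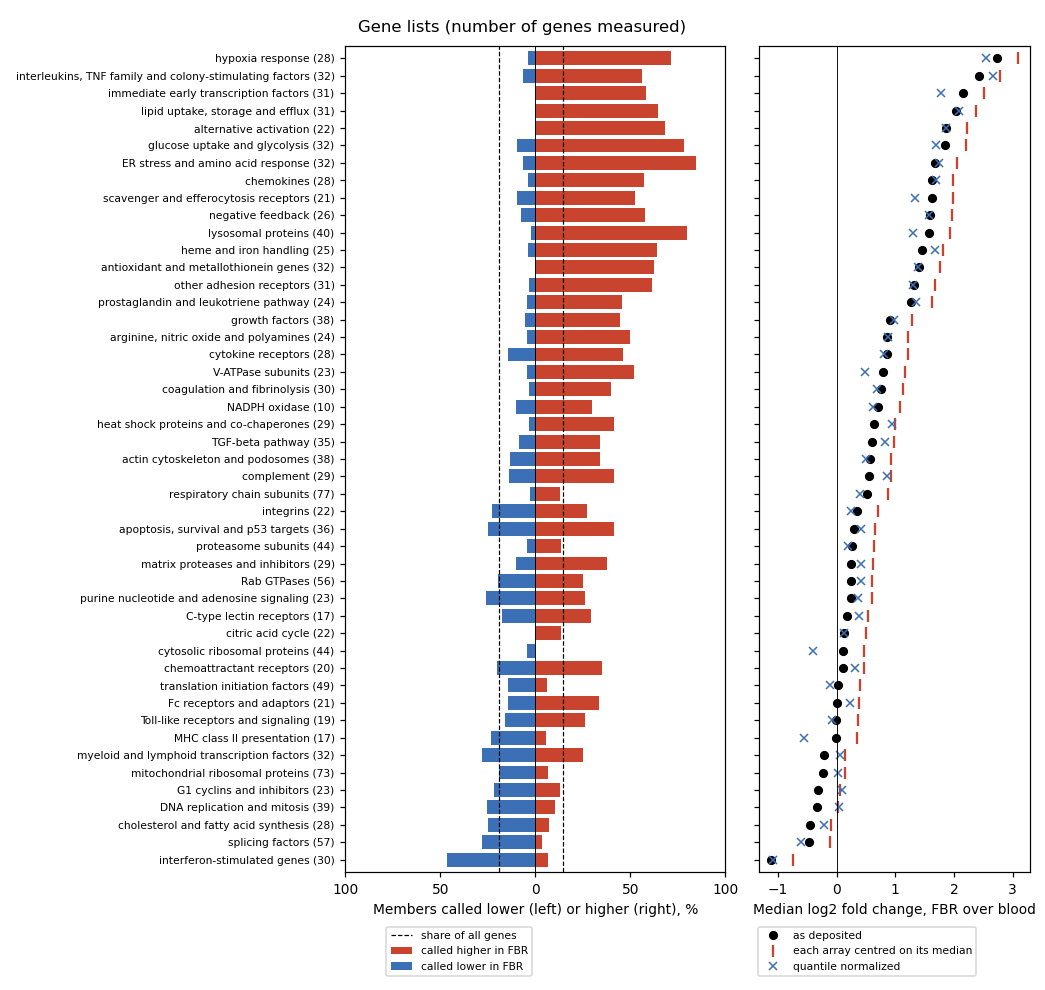
Left, the share of the measured members of each gene list called lower (left of 0) or higher (right of 0) in FBR cells, with dashed lines at the shares of all genes, 19.2% lower and 14.6% higher. Right, the median log2 fold change of each list drawn on the deposited scale, with centring and with quantile normalization. As deposited it runs from 2.74 for the hypoxia response down to -1.12 for interferon-stimulated genes. Lists of cell type markers and of olfactory receptors are not drawn.

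Among 29 matrix proteases and inhibitors 11 rose and 3 fell (median 0.25). Mmp9, a gelatinase, had 4.62, 17.7 and 173 in blood and 3074, 3029 and 2949 in FBR cells (5.90 ± 0.84, adjusted p = 5.1e-04), and Mmp14, a membrane-bound collagenase, had 9.03, 22.1 and 56.9 against 356, 1191 and 1010 (4.23 ± 0.49, adjusted p = 1.5e-04). The inhibitor Timp1 had 152, 142 and 185 against 7766, 6596 and 5228 (5.21 ± 0.25, adjusted p = 2.8e-06), whereas Timp3 fell from 78.1, 88.9 and 60.7 to 27.6, 31.6 and 5.39 (-1.36 ± 0.34, adjusted p = 0.011), a call lost when all its probe sets were averaged (-0.22, adjusted p = 0.59). Mmp12, the macrophage elastase, had 65.3, 56.3 and 400 against 191, 242 and 298 and was not called (0.93). Mmp13, a collagenase, rose by 3.42.

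Coagulation and fibrinolysis genes rose in 12 of 30 and fell in 1 (median 0.76). F3, tissue factor, the starter of clotting, had 5.79, 23.6 and 8.04 in blood and 4733, 4919 and 4709 in FBR cells (7.45 ± 0.28, adjusted p = 8.1e-07). The urokinase Plau had 31.7, 82.3 and 303 against 1955, 1166 and 1829 (3.83 ± 0.57, adjusted p = 6.2e-04), and its receptor Plaur had 302, 78.1 and 536 against 8681, 9037 and 9048 (5.13 ± 0.53, adjusted p = 8.0e-05). The anticoagulant thrombomodulin, Thbd, rose as well, from 378, 146 and 516 to 2452, 2604 and 2472 (2.96 ± 0.39, adjusted p = 3.0e-04). Procoagulant, anticoagulant and fibrinolytic members were thus all among those that rose. The gene that fell was Vwf (-1.94 ± 0.27), which endothelial cells and platelets express.

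Growth factors rose in 17 of 38 and fell in 2 (median 0.91). Ligands of the EGF receptor family were found among both. Ereg, epiregulin, had 61, 53.6 and 43.2 in blood and 11808, 11382 and 10831 in FBR cells (7.38 ± 0.24, adjusted p = 4.3e-07). Areg, amphiregulin, had 2.42, 2 and 1.52 against 1050, 1037 and 936 (5.83 ± 0.40, adjusted p = 8.0e-06), Hbegf had 27.2, 40.4 and 12.4 against 699, 316 and 389 (3.48 ± 0.38, adjusted p = 1.1e-04), and Nrg1 had 47.3, 8.97 and 1.69 against 3757, 1545 and 1333 (6.04 ± 0.52, adjusted p = 2.7e-05). Of the same family, Tgfa fell from 200, 59.7 and 84 to 13.7, 5.19 and 5.52 (-2.30 ± 0.39, adjusted p = 0.0014) and Egf fell (-1.89), and Btc was not called (-0.71). Igf1, a growth factor for many cells, rose with a wide spread (16.4, 3.69 and 124 against 2026, 254 and 271, 3.60 ± 0.87, adjusted p = 0.0096). Of the platelet-derived growth factors Pdgfa rose (2.70), and Bmp2 (4.98) and Gdf15 (4.16) of the TGF-beta superfamily rose.

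In the TGF-beta pathway 12 of 35 rose and 3 fell (median 0.6). Tgfb1, the main ligand, had 172 and 3.96 on the 2 blood arrays with a reading and 428, 228 and 161 in FBR cells, so that the groups overlapped (2.13, adjusted p = 0.069). It was called with centring (adjusted p = 0.037) and with quantile normalization (adjusted p = 0.038). Without blood replicate 1 the change was 3.75, but it then rested on a single blood reading, 3.96, near the floor. Tgfb2 (3.13, adjusted p = 0.034) and Inhba (3.33), a subunit of activin, rose. The call of Tgfb2 was lost when all its probe sets were averaged (1.94, adjusted p = 0.082). The coreceptor endoglin, Eng, had 57.4, 24.5 and 89.9 against 2462, 2311 and 2360 (5.14 ± 0.37, adjusted p = 9.0e-06), and Dab2, an adaptor of receptor uptake and signaling, had 309, 191 and 548 against 9584, 11700 and 12931 (5.08 ± 0.34, adjusted p = 7.7e-06). The receptor Tgfbr1 was not called (-0.40). Of the signal carriers Smad3 rose (1.49) and Smad2 fell (1689, 2558 and 1708 against 710, 1164 and 1196, -0.96, adjusted p = 0.035). The call of Smad2 was lost with centring (adjusted p = 0.19) and with quantile normalization (adjusted p = 0.055). The mean of the probe sets of Smad3 gave no call (0.96, adjusted p = 0.085).

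Integrins changed in both directions, with 6 of 22 higher and 5 lower (median 0.34). Itga5, the chain of the fibronectin receptor, had 70.8, 62.7 and 94.5 in blood and 1044, 928 and 826 in FBR cells (3.37 ± 0.39, adjusted p = 1.5e-04), and Itgav, of the vitronectin receptors, had 360, 285 and 240 against 2210, 2100 and 2488 (2.89 ± 0.28, adjusted p = 5.0e-05). Itgam, the alpha chain of the fibrinogen and complement receptor Mac-1, had 733, 312 and 1588 against 2803, 3040 and 2926 (2.00 ± 0.51, adjusted p = 0.014). Itgal, the alpha chain of LFA-1, fell from 16543, 6902 and 11639 to 1100, 3987 and 4156 (-2.05 ± 0.57, adjusted p = 0.02), and Itgad from 547, 2243 and 686 to 136, 78.5 and 91.3 (-3.06 ± 0.50, adjusted p = 0.0011). Their common partner Itgb2 had 11651, 5356 and 9579 against 13720, 17995 and 16059 (0.91, adjusted p = 0.045), and its call was lost with quantile normalization (adjusted p = 0.52).

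Other adhesion receptors rose in 19 of 31 and fell in 1 (median 1.32). The latter was Pecam1, whose call was lost with centring (adjusted p = 0.067) and with quantile normalization (adjusted p = 0.078). Pdpn, podoplanin, a mucin-like ligand of a platelet receptor, had 61.9, 30.1 and 81.4 in blood and 7219, 6932 and 5926 in FBR cells (6.57 ± 0.32, adjusted p = 1.7e-06). The heparan sulfate proteoglycans syndecan 1 and 4 rose, Sdc1 from 64.9, 40.7 and 121 to 5428, 8391 and 7807 (6.37 ± 0.40, adjusted p = 4.9e-06) and Sdc4 from 256, 597 and 382 to 29682, 35395 and 27274 (6.24 ± 0.31, adjusted p = 1.8e-06), while Sdc2 was not called (-0.21). Icam1, the ligand of LFA-1 and Mac-1, had 1823, 733 and 1559 against 21333, 26552 and 25090 (4.23 ± 0.38, adjusted p = 3.5e-05). Vcam1 had 32.6, 15.9 and 14.3 against 509, 543 and 772 (4.09 ± 0.37, adjusted p = 6.4e-05). In the actin and podosome list 13 of 38 rose and 5 fell (median 0.57). Fblim1, an adaptor at sites of adhesion, had 14.5, 41.6 and 61 against 2042, 2059 and 2025 (5.32 ± 0.42, adjusted p = 1.6e-05), and the tropomyosin Tpm1 fell from 381, 828 and 390 to 76.9, 34.4 and 36.1 (-3.04 ± 0.37, adjusted p = 3.0e-04), although the mean of its probe sets gave no call (-0.25, adjusted p = 0.53). The myosin light chain Myl9 also fell (-3.26), and both are known from platelets as well.

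Lysosomal proteins rose in 32 of 40 and fell in 1, with a median of 1.58. Ctsl, cathepsin L, had 846, 278 and 1784 in blood and 30578, 34855 and 26442 in FBR cells (5.31 ± 0.54, adjusted p = 7.1e-05), and Ctsd, cathepsin D, had 1661, 323 and 2080 against 21439, 19944 and 19026 (4.25 ± 0.58, adjusted p = 3.8e-04). Lamp1, a membrane protein of lysosomes, had 4822, 2074 and 4296 against 17397, 18147 and 14420 (2.24 ± 0.34, adjusted p = 7.4e-04). Blood replicate 2 was the lowest array for all 3. The exception was Ctse, cathepsin E, which fell from 5237, 6090 and 7545 to 553, 303 and 344 (-3.95 ± 0.35, adjusted p = 3.2e-05). Of 23 subunits of the V-ATPase, the proton pump of lysosomes, 12 rose and 1 fell (median 0.79), with Atp6v0b at 2969, 1296 and 2344 in blood and 7787, 12007 and 11264 in FBR cells. The phagocyte NADPH oxidase had 3 of 10 genes higher and 1 lower, which turned to 1 and 2 with quantile normalization and became 6 and 1 with centring. Its genes included Cybb, its catalytic chain, at 17137, 13894 and 17906 in blood and 31497, 39375 and 30054 in FBR cells (1.04 ± 0.27, adjusted p = 0.015, and 0.086 with quantile normalization).

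Scavenger and efferocytosis receptors rose in 11 of 21 and fell in 2 (median 1.62). Gas6, the bridging ligand of Mertk, had 34.5, 50 and 238 in blood and 4075, 2395 and 1864 in FBR cells (4.81 ± 0.56, adjusted p = 1.6e-04). Axl, a relative of Mertk, went the other way, with 583, 726 and 2436 against 666, 143 and 180 (-1.89 ± 0.62, adjusted p = 0.039), but the groups overlapped and the call was lost with centring (adjusted p = 0.079) and with quantile normalization (adjusted p = 0.081). Fc receptors and their adaptors rose in 7 of 21 and fell in 3 (median 0.01). Fcgr2b, the inhibitory receptor of IgG, had 5605, 5037 and 8221 against 31612, 36474 and 27559 (2.36 ± 0.42, adjusted p = 0.0017), and Fcgr3a had 1816, 494 and 676 against 436, 438 and 481 and was not called (-0.89). Fcer2, the low affinity receptor of IgE on B cells, fell by 6.92 on the log2 scale. Of 17 C-type lectin receptors 5 rose and 3 fell (median 0.17), which turned to 3 and 4 with quantile normalization, and those that fell as deposited included Clec1b (-3.85), a receptor of platelets for podoplanin.

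Complement genes rose in 12 of 29 and fell in 4 (median 0.55). The 3 chains of C1q, the recognition protein of the classical pathway, rose together. C1qa had 10.9, 271 and 663 in blood and 8306, 8272 and 6839 in FBR cells (5.49 ± 1.09, adjusted p = 0.0034), C1qb had 2.29, 39.6 and 327 against 3949, 4277 and 3036 (5.73 ± 0.93, adjusted p = 0.0011), and C1qc had 9.22, 111 and 398 against 8351, 9949 and 6820 (6.24 ± 0.88, adjusted p = 4.9e-04). Each chain was lowest in blood replicate 1 and highest in blood replicate 3. Cfd, factor D of the alternative pathway, rose by 4.20 ± 0.38, and C3, the central component, had 3625, 520 and 2998 against 1706, 9459 and 7687 and was not called (1.47).

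Genes of antigen presentation by MHC class II did not shift as a group. Of 17 genes 1 was higher and 4 lower, and with centring 4 were higher and 2 lower. The median was -0.02 as deposited and -0.56 with quantile normalization, and it turned to 0.35 with centring. Cd74, the invariant chain, had 23332, 21927 and 28007 in blood and 28605, 24179 and 19882 in FBR cells, and RT1-Da had 22366, 27600 and 26506 against 29501, 29598 and 23924. Both overlapped between the groups at signals close to the top of the arrays. Ciita, the transactivator of these genes, fell from 4194, 4518 and 4201 to 205, 156 and 162 (-4.51 ± 0.43, adjusted p = 5.0e-05), and the costimulator Cd86 fell from 1219, 693 and 918 to 633, 309 and 252 (-1.29, adjusted p = 0.023), a call lost with centring (adjusted p = 0.087) and with quantile normalization (adjusted p = 0.063). B cells, whose markers fell, express MHC class II and Ciita as well, and their part was not tested.

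Transcription factors of myeloid and lymphoid cells moved both ways, with 8 of 32 higher and 9 lower (9 and 8 with centring). Their median of -0.21 turned to 0.06 with quantile normalization and 0.15 with centring. Mitf, a factor of lysosomal genes and of osteoclasts, had 819, 364 and 562 in blood and 4874, 6556 and 5465 in FBR cells (3.30 ± 0.33, adjusted p = 6.4e-05), and Maf had 835, 996 and 966 against 5624, 6997 and 6924 (2.78 ± 0.32, adjusted p = 1.5e-04). Cebpb, a factor of macrophage activation, rose by 2.76 ± 0.54. The lymphoid factors Ets1 (8255, 19233 and 11008 against 529, 664 and 687, -4.24 ± 0.37), Satb1 (-5.62), Tcf7 (-4.68) and Lef1 (-2.67) fell. Irf8, of monocytes and B cells, did not pass (-0.80, adjusted p = 0.083) except under some settings, quantile normalization among them (adjusted p = 0.041).

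Genes of survival and cell death were called in 24 of 36, with 15 higher and 9 lower (median 0.29). Cdkn1a, the cyclin-dependent kinase inhibitor p21, had 277, 203 and 391 in blood and 12543, 11764 and 11530 in FBR cells (5.33 ± 0.28, adjusted p = 4.3e-06). Cflar, an inhibitor of caspase 8, had 583, 867 and 590 against 9114, 17537 and 16537 (4.34 ± 0.32, adjusted p = 1.0e-05), and Casp8 itself fell from 2582, 3287 and 2847 to 626, 611 and 614 (-2.20 ± 0.21, adjusted p = 5.6e-05). Bcl2l1 (3.19), Bcl2a1 (2.07) and Birc3 (1.73), which oppose death, rose, and so did Bcl2l11 (2.52) and Bad (1.55), which promote it, while Bcl2 (-1.54) and Xiap (-2.15) fell.

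Cell cycle genes showed no common direction. Of 39 genes of replication and mitosis 4 rose and 10 fell, but 6 rose and 5 fell with quantile normalization and 8 and 6 with centring, and the median of -0.33 turned to 0.04 with quantile normalization and 0.03 with centring. Mki67, a marker of dividing cells, had 93.8, 79.7 and 271 in blood and 654, 126 and 94.1 in FBR cells and was not called (0.60). Mcm3, a subunit of the replicative helicase, fell from 2102, 2876 and 2970 to 376, 358 and 380 (-2.77 ± 0.28, adjusted p = 6.8e-05), whereas Cks2, a binding partner of cyclin-dependent kinases, rose from 407, 270 and 353 to 7172, 13239 and 11438 (4.86 ± 0.35, adjusted p = 1.0e-05). Among 23 G1 regulators Cdkn1b, p27, fell (10295, 11263 and 10327 against 3241, 2431 and 2501, -1.97 ± 0.23) as p21 rose.

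Housekeeping families served as a scale for these changes. Of 44 cytosolic ribosomal proteins 0 rose and 2 fell, Rps13 (-1.71) and Rpl28 (-1.27, with the call lost under centring, adjusted p = 0.074), and their median of 0.10 turned to -0.41 with quantile normalization (0 higher, 7 lower) and was 0.47 with centring (5 higher, 1 lower). Mitochondrial ribosomal proteins fell in 14 of 73 and rose in 5 (median -0.23). This turned to 3 lower and 4 higher with quantile normalization (median 0.02) and to 2 lower and 9 higher with centring (median 0.14). Splicing factors fell in 16 of 57 and rose in 2 (median -0.48), with 10 lower and 7 higher under centring (median -0.12). Srsf1 was at 7338, 13293 and 9134 in blood and 1711, 1898 and 1880 in FBR cells (-2.39 ± 0.31, adjusted p = 2.8e-04). Of 44 proteasome subunits 6 rose and 2 fell (14 and 2 with centring), and those that fell, Psmb9 (4737, 3581 and 5174 against 2089, 1147 and 1437) and Psmb10 (-1.28), belong to the immunoproteasome. Translation initiation factors fell in 7 of 49 and rose in 3, which turned to 4 lower and 13 higher with centring and was 9 lower and 2 higher with quantile normalization. Among them Eif4ebp1, a repressor of cap-dependent translation, rose by 2.27. Of 56 Rab GTPases, switches of membrane traffic, 14 rose and 11 fell (21 and 6 with centring), with Rab20 at 884, 371 and 757 against 7983, 8775 and 9163 (3.74 ± 0.34, adjusted p = 3.6e-05). In purine signaling 6 of 23 rose and 6 fell (7 and 3 with centring). Nt5e, CD73, which makes adenosine, rose (3.36) while Entpd1, CD39, which acts before it, fell (-1.72) with the call lost under centring (adjusted p = 0.052), and the adenosine receptors Adora2a (2.99) and Adora2b (1.63) rose.

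FBR replicate 1 differed from replicates 2 and 3 in a set of genes. Among genes with a mean signal of at least 200, the largest SD between FBR arrays was in Lgals1, a galectin, with 5430, 130 and 81.5 against 1563, 358 and 1485 in blood. RT1-T24-4, a class I histocompatibility gene, had 5539, 234 and 323, whereas RT1-Bb of class II had 853, 15833 and 15418 and RT1-A3 had 196, 1224 and 1168. These 3 are members of a polymorphic family. Agmat (672, 11.1 and 24.5), Cyp26a1 (562, 44.1 and 94.9), Plekhh1 (647, 69.8 and 72.9), Igf1, Fcrl2 (523, 59.9 and 78.8) and Tbc1d4 (2020, 281 and 337) were high on replicate 1 alone. In all 10 genes of this set replicate 1 was the array apart and replicates 2 and 3 lay close to each other. The fibroblast markers and Mki67 were also highest on replicate 1, and their part in these differences was not tested. Without FBR replicate 1 the fit called 2847 probe sets higher and 5334 lower.

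Blood arrays varied in other genes. The largest SD there was in Cxcl1 (9.19, 274 and 1641), followed by Dguok, a mitochondrial kinase of nucleosides (7.74, 585 and 927). Blood replicate 3 was the highest blood array for Cxcl1, Dguok, Ccl2, Ptgis, Ccl24, Spp1, C1qa, Selp and Anxa3. Spp1, osteopontin, had 56.9, 21.4 and 878 in blood and 5700, 1459 and 967 in FBR cells (3.91 ± 1.08, adjusted p = 0.022). For Dguok, Ptgis, Selp and Anxa3 the blood and FBR arrays overlapped. Hbb was the only gene of these 10 highest on blood replicate 1.

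**Figure D5:**
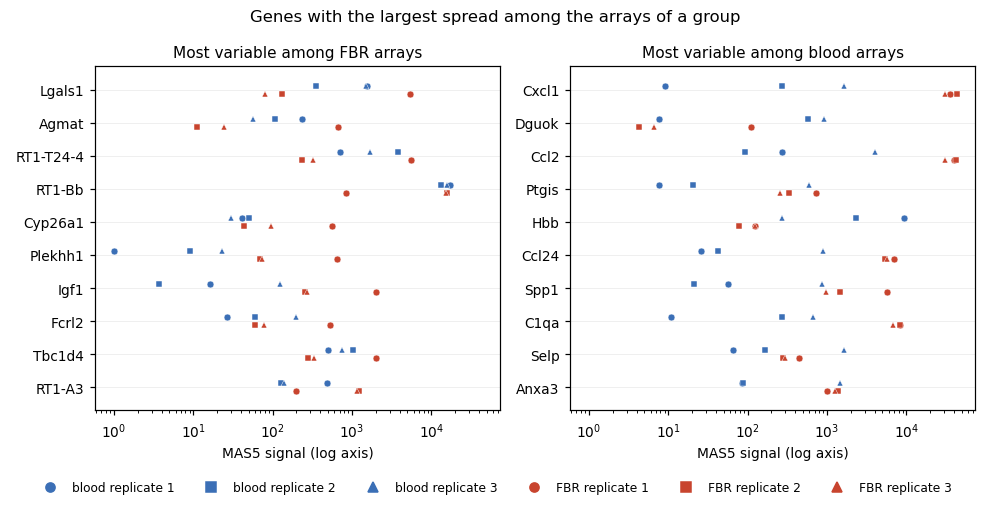
MAS5 signal (x axis, log) on each array, with a marker shape per replicate, for the 10 genes with the largest spread among FBR arrays (left) and among blood arrays (right). On the left FBR replicate 1 stands apart in every row, and on the right blood replicate 3 is the highest blood array in 9 of 10 rows.

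Some genes with a high mean in both groups still moved. Of 2398 genes with a mean of at least 1000 in each group, 536 rose and 354 fell. The largest changes among them were in Ccl2, Cxcl2, Ctsd, Ero1a and Icam1, given above. They were followed by Plscr1, a scramblase of membrane lipids (613, 1691 and 1071 in blood, 13275, 21943 and 19484 in FBR cells, 4.08 ± 0.39, adjusted p = 4.8e-05), and Vcan, a matrix proteoglycan made by monocytes (2577, 539 and 1383 against 16979, 22398 and 18594, 3.93 ± 0.55, adjusted p = 4.5e-04). Enpp3, an ectoenzyme of nucleotides, had 190, 252 and 2779 against 6567, 8945 and 8590 (3.90 ± 0.94, adjusted p = 0.0095). For Ccl2, Cxcl2 and Enpp3 blood replicate 3 alone brought the blood mean over 1000, the other blood arrays lying between 94.1 and 483.

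Probe sets of a gene did not always agree in direction. Cd47, the signal against phagocytosis, was called higher on a probe set with 3763, 2596 and 3676 in blood and 5093, 6465 and 5978 in FBR cells (0.82, adjusted p = 0.039) and lower on another with 4454, 8210 and 5010 against 2663, 2357 and 2758 (-1.13, adjusted p = 0.0087). The death receptor Fas was higher on its brightest probe set (736, 321 and 618 against 942, 1255 and 1122, adjusted p = 0.034) and lower on another (74.6, 40.6 and 35.6 against 3.96, 24.6 and 15.4, adjusted p = 0.041). The translation factor Eif4e was not called on its brightest probe set (0.03), and Masp2 and Rab14 also had probe sets called in both directions. No direction is given for these 5 genes as a whole. The list counts use the brightest probe set, so that Cd47 and Fas entered them as higher and Masp2 as lower. The mean of the probe sets of Masp2 gave no call (-0.45, adjusted p = 0.091).

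The in vitro activated cells, which came from blood and had adhered to fibrinogen, place some of these values. Against them, 1262 of 14218 genes were higher in FBR cells (8.88%) and 2372 lower (16.7%). This comparison uses the same FBR arrays as the comparison with blood, so the values stand side by side and are not independent. Immediate early genes were higher than in the cultured cells in 24 of 31 and lower in 1. The counts were 17 of 26 and 2 for negative feedback genes, and 18 of 28 and 0 for hypoxia genes. Cd163, at 10.6, 5.57 and 31.3 in vitro, was higher in FBR cells by 8.34 (adjusted p = 4.6e-05), Il6 by 8.32 (adjusted p = 2.4e-05) and Ptgs2 by 8.24 (adjusted p = 1.1e-05). Apoe, which rose by 6.97 against blood, was at 14930, 16356 and 46400 in vitro and was not called (-0.57, adjusted p = 0.47). Igf1 and Mmp12 were lower in FBR cells than in vitro, with log2 fold changes of -4.67 for Igf1 (adjusted p = 0.0041) and -6.51 for Mmp12 (adjusted p = 8.9e-05). Mitochondrial ribosomal proteins were lower than in vitro in 30 of 73 and replication and mitosis genes in 25 of 39. Some lists moved against blood in the cultured cells much as they did in FBR cells. Medians in vitro and in FBR cells were -1.49 and -1.12 for interferon-stimulated genes and -4.92 and -5.64 for B cell markers. They were 1.58 and 1.58 for lysosomal proteins, and 2.06 and 2.03 for lipid uptake, storage and efflux.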

How the data were processed

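RNA of CD68+ cells had been amplified by a double round of T7 transcription and hybridised to 9 Affymetrix Rat 230 2.0 arrays. The authors summarised probe sets with MAS5 and deposited linear signal intensity values. The deposited table had lost its decimal marks in part, so each value was restored before use: 83.44% of cells were kept, 15.45% divided by 1000, 0.07% read back from dates and 1.04% left missing. Tables of the authors' own comparisons, which hold log2 fold changes and adjusted p-values, were not used. Limma 3.58.1 in R 4.3.3 fitted log2(signal + 16) with 1 mean per group over all 9 arrays, and p-values were adjusted over 31099 probe sets. The script was tested on simulated data. A gene was read from its brightest probe set with a single symbol, which gave 14218 genes. Genes were named for the size of their change, within lists, for their spread, or because the study names them. Members and lists were chosen with earlier results of these data known. Sequences came from RefSeq GRCr8. The number of arrays limits the precision.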

Additional observations from a re-analysis of the deposited data

How the results depend on the processing

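Centring each array on its median moved the counts most, to 5344 probe sets higher and 4047 lower and to 3189 genes higher and 1682 lower, and it brought the difference in the share of signals above 100 to -0.1 percentage points. Leaving out each array in turn gave 2646 to 3618 probe sets higher and 4850 to 6584 lower, 1623 to 2187 genes higher and 2093 to 2850 lower, and a difference in share of -5.4 to -4.5. Arrays with the same number did not deviate together, and in the fit with the replicate block 3260 probe sets were higher and 5924 lower. Weak signals limit the fold changes, which grow with a smaller pseudocount, and 8.95% of probe sets had a missing value on some array. Of 306 genes checked, 239 kept their call under all 20 alternatives. Averaging the probe sets of each gene turned Cd47 to -0.16 and Fas to -0.21, since their probe sets differ in direction. Without 1 array, 31 called genes lost their call in at least 1 case, namely Aco1, Axl, Blvra, Cd47, Cd86, Csf1r, Cx3cr1, Cybb, Eif4ebp1, Fas, Fcnb, Hbb, Hspa4, Il2rg, Irak4, Irf1, Irf7, Itgal, Itgb2, Msln, Ndufs1, Nos2, Pecam1, Pfkm, Plvap, Psmb10, Retnla, Smad2, Smad3, Spp1 and Tgfb2, and 18 that had not been called gained one, among them Agmat and Lgals1 without FBR replicate 1 (adjusted p = 0.018 each) and Anxa3 and Mmp12 without blood replicate 3 (adjusted p = 0.0016 and 0.0047).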
